A study of Mus musculus with 10 samples.

Results

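The 6 genes described here are acute phase genes of hepatocytes: Saa1, Orm1, Crp, Cp, Serpina3n and Serpina3m. Each has 1 named probe, and the 6 probes were taken by identifier from the 24048 of the array, of which 8884 could be named for 7409 genes. They were chosen by gene function with their levels, their spread between livers and their genotype difference in these same livers already known. Those values are therefore a description, and no p printed for a member supports anything. Liver RNA came from 5 female mice heterozygous for Gyk, the X-linked glycerol kinase gene, and from 5 female C57Bl/6J wildtype mice, and each mouse had its own Illumina bead array. Mice of both groups were 23 weeks old, were given chow with 4% fat until 11 weeks of age and chow with 6% fat from then on, and no immune challenge is named in the labels for any of them. In a heterozygous female each cell uses either the altered or the intact X-linked copy, so these livers are mixtures of both kinds of cell. The sources used here do not state which alteration of Gyk the mice carry.

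The acute phase response is the change in the proteins that the liver secretes into blood after infection, injury or other inflammation. Interleukin-6 acts on hepatocytes through the STAT3 transcription factor, and interleukin-1 and TNF act through NF-kappaB and C/EBP factors, often together with glucocorticoids. The 6 members play different parts in this response. Saa1 codes for serum amyloid A, an apolipoprotein of high density lipoprotein that climbs steeply in plasma during inflammation, and Orm1 codes for orosomucoid, a plasma carrier of small molecules. Crp codes for C-reactive protein, a pentraxin that binds microbial and damaged surfaces and that in mice, unlike humans, responds only weakly. Cp codes for ceruloplasmin, the copper-carrying ferroxidase of plasma. Serpina3n and Serpina3m belong to the mouse cluster of serine protease inhibitors that corresponds to the single human gene for alpha-1-antichymotrypsin.

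Values are background-subtracted intensities as deposited, in arbitrary units, and each is compared only with the same probe on other arrays. Log2 values were taken after adding 95.2 to every intensity and quantile normalization. A probe counted as detected on an array above a threshold that lay between 21.9 and 41.1 units, and the 6 members were detected on all 10 arrays. Of all probes 10238 were detected on at least 5 arrays and are called kept. The arrays of Gyk heterozygous replicate 1 and wildtype replicate 1 stood apart from the other 8, at -36.5 and -39.3 on the first principal component against -7.32 to 22.1. The probe of Gyk itself averaged 319.7 ± 90.1 units in heterozygous and 559 ± 209 units in wildtype liver (SD, n = 5 each), with a log2 difference of -0.65 (limma adjusted p = 0.331), and the groups overlapped; another probe of the gene was detected on 0 arrays. The sample titles carry a leading number of unstated meaning, which was 1 or 2 for all heterozygous livers and for wildtype replicates 1 and 2, and 7 for wildtype replicates 3, 4 and 5 alone.

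The sequences before the start sites are shown for Saa1, Saa2, Crp and Serpina3n. They are the 250 bases upstream of the RefSeq start in assembly GRCm38.p6, read on the gene's own strand, and 4 of the 6 members had such a window. Capitals mark matches, on either strand, to TTNNGNAAT, a C/EBP or interleukin-6 type element, to TTCNNNGAA, a STAT element, to TATAAA, the TATA box, and to an NF-kappaB site, GGG and TTTCC with 2 bases of any kind between them. Saa2, the neighbouring gene of Saa1, is shown because its probe followed that of Saa1 most closely. Crp (r = -0.28 with Saa1) and Serpina3n (r = -0.46) are shown because their probes did not climb with that of Saa1. Orm1, the member that moved most closely with Saa1, and Serpina3m had no window, and Cp is described below but not printed. The sequences are therefore not a comparison of genes that move with Saa1 and genes that do not.
Saa1, chr7:46742981-46743230, minus strand: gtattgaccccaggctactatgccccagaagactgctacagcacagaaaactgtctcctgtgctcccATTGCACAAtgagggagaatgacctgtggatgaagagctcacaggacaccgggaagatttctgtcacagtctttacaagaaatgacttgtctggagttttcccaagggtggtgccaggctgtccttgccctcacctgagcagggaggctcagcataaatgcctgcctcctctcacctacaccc
Saa2, chr7:46751583-46751832, plus strand: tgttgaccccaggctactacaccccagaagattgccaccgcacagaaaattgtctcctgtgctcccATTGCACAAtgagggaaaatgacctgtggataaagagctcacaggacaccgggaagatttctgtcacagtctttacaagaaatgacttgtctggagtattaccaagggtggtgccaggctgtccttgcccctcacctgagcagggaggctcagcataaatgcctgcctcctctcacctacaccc
Crp, chr1:172697806-172698055, plus strand: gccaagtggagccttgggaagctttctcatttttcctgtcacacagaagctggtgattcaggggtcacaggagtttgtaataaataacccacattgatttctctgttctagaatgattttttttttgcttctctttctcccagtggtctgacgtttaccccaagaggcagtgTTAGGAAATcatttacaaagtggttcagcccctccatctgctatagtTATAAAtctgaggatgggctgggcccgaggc
Serpina3n, chr12:104406458-104406707, plus strand: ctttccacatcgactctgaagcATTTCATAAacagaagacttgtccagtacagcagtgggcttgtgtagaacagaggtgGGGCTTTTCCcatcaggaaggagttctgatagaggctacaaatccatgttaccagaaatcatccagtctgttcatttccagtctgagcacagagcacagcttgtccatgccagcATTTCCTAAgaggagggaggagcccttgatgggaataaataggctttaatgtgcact

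The Saa1 and Saa2 windows were 94.8% identical over 251 aligned positions, and both held the C/EBP type element in the same form, TTGTGCAAT on the opposite strand, at -183 to -175 in Saa1 and at -184 to -176 in Saa2. Crp had a C/EBP type element at -78 to -70 and a TATA box at -31 to -26. Serpina3n had an NF-kappaB site at -171 to -162 and C/EBP type elements at -228 to -220 and at -57 to -49. Cp had 2 windows, and 1 of them held overlapping matches to TATAAA on both strands, at -25 to -20 and -27 to -22. The STAT element was found in 0 of these windows. Among 32841 promoter windows of the same length, 10.2% held TTNNGNAAT, 7.02% TTCNNNGAA, 1.41% the NF-kappaB site and 12.4% TATAAA on either strand. A match to so short a pattern describes the letters and is not evidence that a factor binds there.

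Saa1 (probe scl020208.3_20-S, chromosome 7) varied far more between livers than the other members did. Its intensity was 1453, 268, 392, 2905 and 409 units in Gyk heterozygous replicates 1 to 5, and 696, 2580, 241, 127 and 209 units in wildtype replicates 1 to 5. The highest liver was 22.9 times the lowest, and the range was wide inside each genotype, 10.8-fold among heterozygous and 20.4-fold among wildtype livers. Heterozygous replicates 4 and 1 and wildtype replicate 2 were the 3 highest, and the 3 lowest were the wildtype livers with title number 7. The groups overlapped over nearly their whole range. Means were 1085 ± 1124 units in heterozygous and 770 ± 1036 units in wildtype liver (SD, n = 5 each), so the SD was as large as the mean in both. In whole liver, fewer cells of a type and less RNA per cell cannot be told apart, here and in all values that follow.

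Serum amyloid A genes lie next to each other on mouse chromosome 7, and no other gene of the table lies between Saa1 and Saa2. The only other named serum amyloid A probe on the array, that of Saa2 (scl020209.4_127-S), was not a member and showed the same livers as high. It had 312, 51.4, 65.6, 483 and 78.0 units in heterozygous replicates 1 to 5, and 142, 600.1, 85.0, 65.1 and 80.7 units in wildtype replicates 1 to 5. Across the 10 livers the log2 values of Saa1 and Saa2 correlated at r = 0.95 (rho = 0.77), at 0.96 without the 2 arrays that stood apart and at 0.89 without heterozygous replicate 4 and wildtype replicate 2, the livers farthest from the Saa1 median. The transcripts of these genes are near copies, the gene table lists each symbol as an older name of the other, and the probe sequences were not used here, so the probes may share transcripts. The genotype difference of Saa2 was 0.06 on the log2 scale with an SE of 0.47 (limma adjusted p = 0.979).

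Orm1 (scl018405.4_2-S, chromosome 4) ordered the livers much as Saa1 did, within a range of only 1.42-fold. Its intensity was 17318, 12482, 14962, 16678 and 16757 units in heterozygous replicates 1 to 5, and 14760, 17732, 13197, 13913 and 14098 units in wildtype replicates 1 to 5. Wildtype replicate 2 and heterozygous replicates 1, 5 and 4 were the 4 highest, and these include the 3 livers that were highest for Saa1. Means were 15639 ± 1973 units in heterozygous and 14740 ± 1763 units in wildtype liver (SD, n = 5 each). The mouse genome has several orosomucoid genes of very similar sequence, and which of them the probe reads was not tested.

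Crp (scl012944.4_290-S, chromosome 1) was the steadiest member. Its intensity was 18272, 15009, 18237, 15401 and 17420 units in heterozygous replicates 1 to 5, and 18101, 18808, 19101, 18954 and 20896 units in wildtype replicates 1 to 5. In these units the heterozygous livers were mostly lower, and only replicates 1 and 3 exceeded the lowest wildtype liver, with means of 16868 ± 1562 units in heterozygous and 19172 ± 1037 units in wildtype liver (SD, n = 5 each). Quantile normalization took most of that away: the log2 difference was -0.07 after it and -0.19 in the deposited values without it. The highest signals of the arrays ranged from 49490 to 70814 units, so Crp and Orm1 lay below the brightest probes on every array.

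Cp (scl0012870.2_25-S, chromosome 3) had 559, 403, 407, 514 and 440.4 units in heterozygous replicates 1 to 5, and 480, 306, 407, 378 and 349.9 units in wildtype replicates 1 to 5. Heterozygous replicates 1 and 4 were highest and wildtype replicates 2 and 5 lowest, while the middle values overlapped. Wildtype replicate 2, among the highest for Saa1 and Orm1, was the lowest of all for Cp. Means were 465 ± 68.8 units in heterozygous and 384 ± 65.1 units in wildtype liver (SD, n = 5 each).

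Serpina3n (scl020716.5_261-S) and Serpina3m (scl020717.5_18-S) lie beside each other on chromosome 12, with 1 gene of the table and no protein-coding gene between them, and their probes differed between the genotypes in opposite directions, neither of them past the threshold. Serpina3n had 10449, 11289, 12548, 11985 and 11523 units in heterozygous replicates 1 to 5, and 10968, 14284, 12945, 18126 and 17644 units in wildtype replicates 1 to 5. The heterozygous livers were close together, and wildtype replicates 4 and 5 were clearly higher than all others. Means were 11559 ± 785 units in heterozygous and 14793 ± 3064 units in wildtype liver (SD, n = 5 each).

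Serpina3m had 6695, 7707, 6422, 6938 and 5151 units in heterozygous replicates 1 to 5, and 6665, 4724, 3155, 3353 and 3651 units in wildtype replicates 1 to 5. The 3 wildtype livers with title number 7 were the lowest of all, wildtype replicate 2 was next, and wildtype replicate 1 lay among the heterozygous livers. Means were 6583 ± 933 units in heterozygous and 4310 ± 1449 units in wildtype liver (SD, n = 5 each). Of the other genes of the cluster, Serpina3k ranged from 25330 to 29512 units in heterozygous and from 26827 to 31568 units in wildtype liver, and Serpina3g from 371 to 984 units in heterozygous and from 473 to 736 units in wildtype liver. Their r with Serpina3m was 0.12 and -0.01 over 10 livers. Serpina3a was detected on 0 arrays. The genes of this cluster are close relatives, and the probes were not told apart by sequence.

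**Figure D1:**
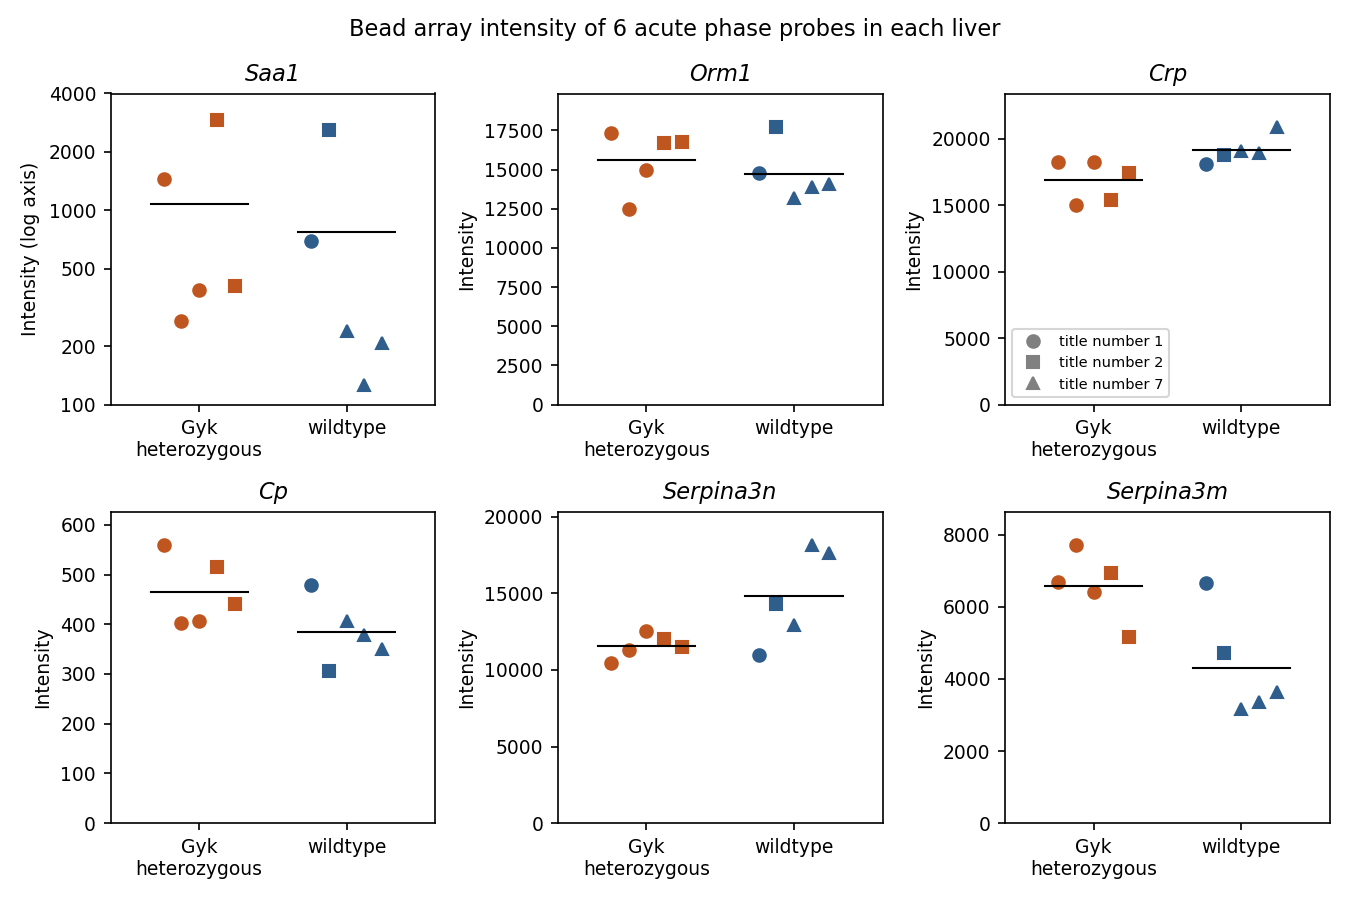
Deposited intensity of the 6 probes (vertical axes in arbitrary units, starting at 0 except for Saa1, which has a log axis) in 5 Gyk heterozygous livers (orange, left) and 5 wildtype livers (blue, right). Each point is 1 liver, in replicate order from left to right, its shape gives the number in the sample title and black lines are group means; Saa1 spans 127 to 2905 units while Crp spans 15009 to 20896 units.

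The spread was measured as the SD of the log2 values over the 10 livers and set beside that of all 10238 kept probes, whose median SD was 0.19. Saa1 had an SD of 1.34 and ranked 40, within the upper 0.391% of kept probes. Serpina3m followed with an SD of 0.47 and rank 704, then Serpina3n with 0.23 and rank 3471. Cp (0.19, rank 4901) and Orm1 (0.18, rank 5752) lay near the middle, and Crp (0.10, rank 9459) was among the steadiest probes. Thus 1 of 6 members was in the upper 1% and 4 of 6 were above the median. Within genotypes the residual SD was 1.38 for Saa1, 0.31 for Serpina3m and 0.22 for Serpina3n, against a median of 0.18 over all kept probes. The constant added before taking logs compresses dim probes, which makes the SD of Saa1 in its lowest livers an underestimate.

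**Figure D2:**
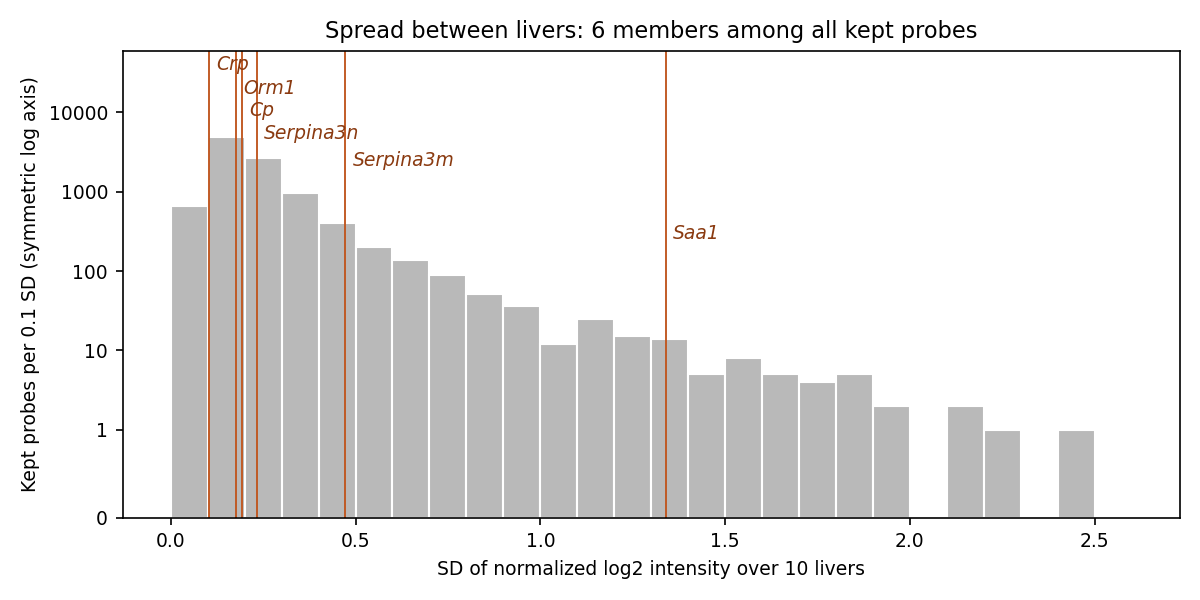
Number of kept probes (vertical axis, symmetric log scale, 10238 probes in all) by the SD of their normalized log2 intensity over 10 livers (horizontal axis, bins of 0.1). Orange lines mark the 6 members; Saa1 stands in the sparse upper tail at 1.34 and the other 5 lie between 0.10 and 0.47.

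The 6 probes did not vary together as a group. Of the 15 pairs of members, 7 correlated above 0 and 8 below 0 across the 10 livers, and 1 pair, Saa1 and Orm1, exceeded r = 0.7. After centring on the genotype means 13 of 15 pairs kept the sign of r, and in 7 of 15 the sign among the 5 heterozygous livers was opposite to that among the 5 wildtype livers. These correlations are descriptions over 10 livers that share 1 normalization, and 2 of the arrays stood apart, so values without those arrays are given beside them. Saa1 and Orm1 correlated at r = 0.81 (rho = 0.81), at 0.88 over the 8 other livers, at 0.86 within genotypes and at 0.77 without heterozygous replicate 4 and wildtype replicate 2. Over 16 other settings its r lay between 0.75 and 0.88.

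Serpina3n and Serpina3m correlated at r = -0.68 (rho = -0.62), and at -0.69 without the 2 arrays that stood apart. Inside the genotypes the sign differed, with r = 0.56 among 5 heterozygous and -0.91 among 5 wildtype livers, where the title number also separates the livers; this difference was not tested. Crp and Serpina3m correlated at r = -0.64 (rho = -0.62), and at -0.82 over the 8 other livers. Cp followed both Saa1 (r = 0.90) and Orm1 (r = 0.95) among the heterozygous livers but not among wildtype livers (r = -0.50 and -0.70), where replicate 2 was high for Saa1 and Orm1 and lowest for Cp. Over all 10 livers Saa1 and Cp correlated at r = 0.26 (rho = 0.49), and at 0.89 without heterozygous replicate 4 and wildtype replicate 2. These livers acted in opposite ways, with r = 0.88 without wildtype replicate 2 alone and 0.004 without heterozygous replicate 4 alone. Saa1 and Serpina3n correlated at r = -0.46 (rho = -0.64), and at -0.84 without both heterozygous replicate 4 and wildtype replicate 2.

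**Figure D3:**
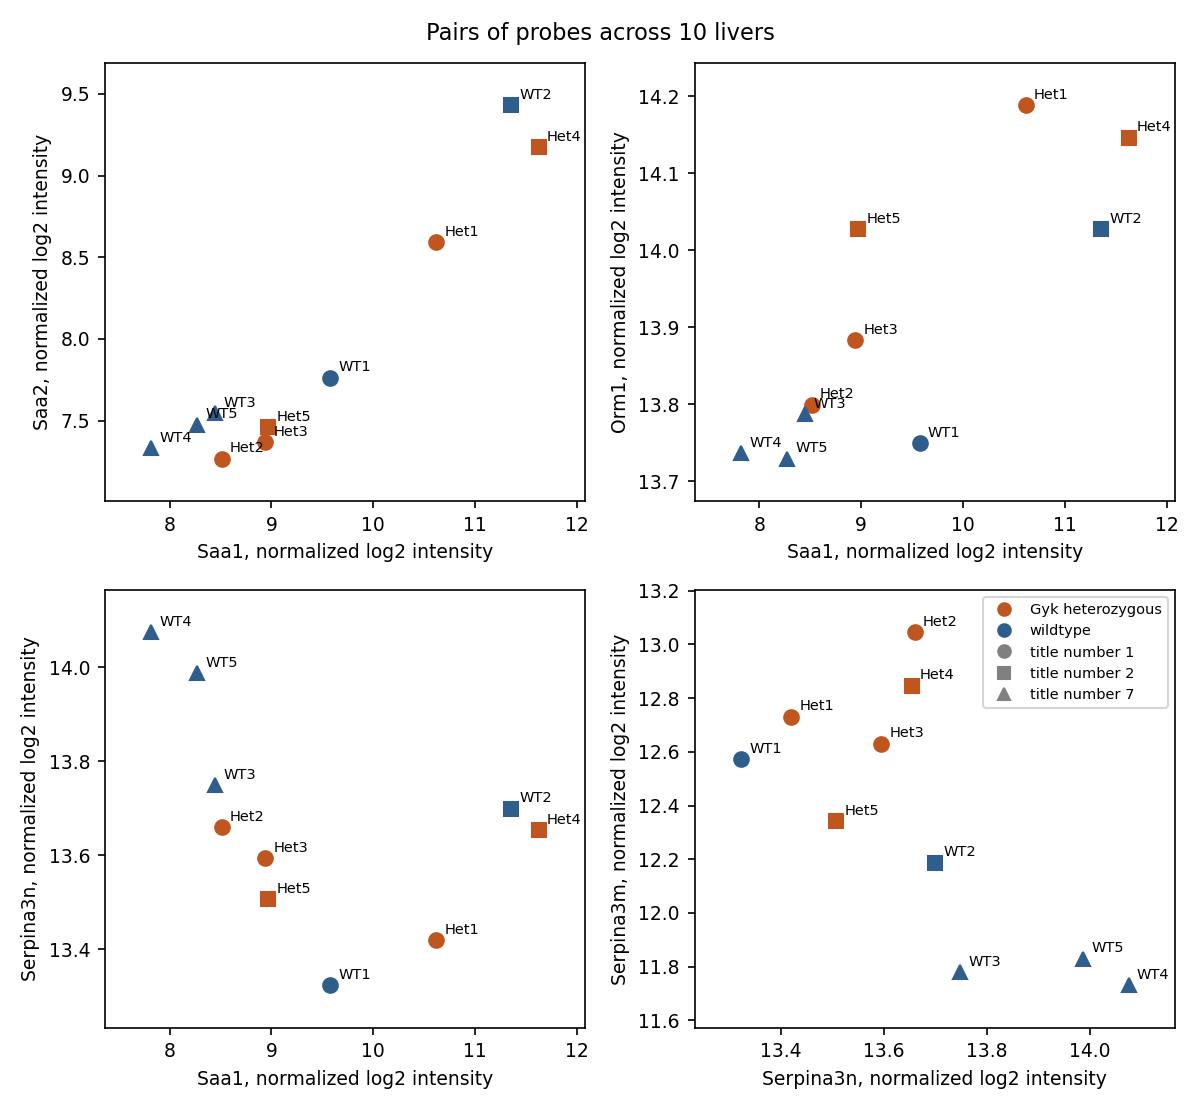
Normalized log2 intensity of 4 pairs of probes, 1 point per liver, orange for Gyk heterozygous (Het1 to Het5) and blue for wildtype (WT1 to WT5), with shapes for the number in the sample title. Saa2 and Orm1 climb with Saa1 (r = 0.95 and 0.81), Serpina3n does not (r = -0.46), and Serpina3m is lowest where Serpina3n is highest (r = -0.68).

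**Figure D4:**
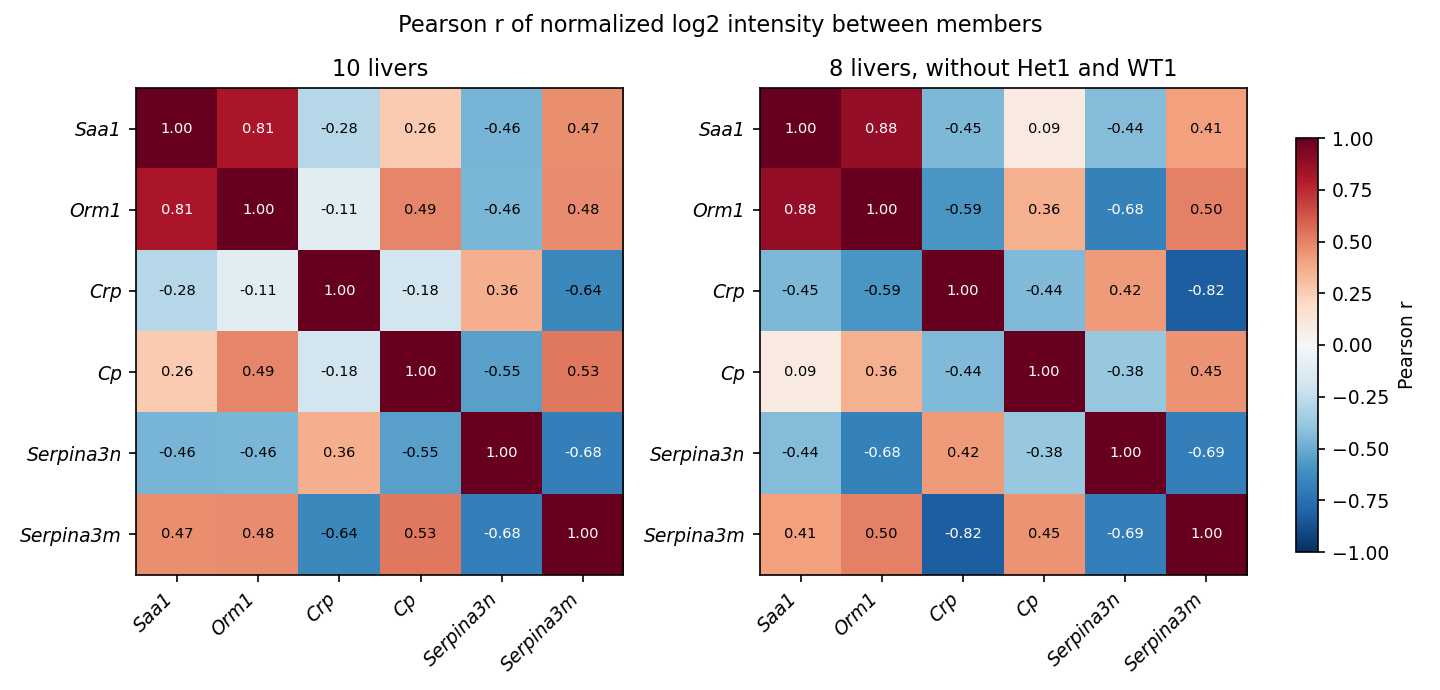
Pearson r of normalized log2 intensity for the 15 pairs of members, over 10 livers on the left and over 8 livers without Gyk heterozygous replicate 1 (Het1) and wildtype replicate 1 (WT1) on the right; red is above 0 and blue below 0. The sign of r was the same in both for 15 of 15 pairs, while within the genotypes it was opposite for 7 of 15, and Saa1 with Orm1 had the highest value in each, 0.81 and 0.88.

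For each member the named probes of other genes with the highest r over the 10 livers were sought among 4052 probes. For Saa1 these were Saa2 (r = 0.95), Adar, an RNA-editing enzyme (0.89), and Sec11a, a subunit of the signal peptidase that trims secreted proteins (0.89). For Orm1 they were Cklf, a chemokine-like gene (0.88), Pml, which builds nuclear bodies and is induced by interferon (0.88), and Apol9a (0.87). For Serpina3m they were the X-linked ribosomal gene Rps4x (0.96), Glrx5, a mitochondrial iron-sulfur protein (0.95), and Sel1l, a part of the degradation machinery of the endoplasmic reticulum (0.94), and for Serpina3n Pigl (0.97), Odf2 (0.96) and Rasgef1b (0.96). For Cp they were Ptma (0.94), Rps9 (0.93) and Ss18 (0.91), and for Crp Vamp1 (0.86), Klf8 (0.84) and Elf2 (0.82). Every one of these r values is the largest of 4052 or close to it, so a high value is built into the choice. The intensities of Cklf, Vamp1, Klf8, Elf2 and Odf2 reached down to between 8.9 and 28.4 units, near or under the detection threshold.

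The comparison of the genotypes asked whether the acute phase genes differ in liver when 1 copy of Gyk is altered. Log2 differences, heterozygous minus wildtype, were 0.70 for Serpina3m (95% interval 0.31 to 1.09), 0.64 for Saa1 (-1.0 to 2.27), 0.22 for Cp (-0.01 to 0.45), 0.20 for Orm1 (-0.01 to 0.42), -0.07 for Crp (-0.24 to 0.10) and -0.20 for Serpina3n (-0.49 to 0.09). Serpina3m was thus 1.62-fold higher in heterozygous liver, with an SE of 0.18 on the log2 scale, and its limma p ranked 59 among all kept probes. With Benjamini-Hochberg adjustment over the 10238 probes, limma put 0 of 6 members under 0.05, where 0% of all kept probes were called, and the lowest adjusted p of a member was 0.331, that of Serpina3m. An unadjusted p under 0.05 was reached by 1 of 6 members, in the higher direction, and by 11.9% of all kept probes, 7.26% higher and 4.69% lower. The groups did not overlap for 0 of 6 members, against 1.78% of kept probes, 0.977% with the heterozygous livers above and 0.801% below. The log2 difference was above 0 for 4 of 6 members and 46.5% of kept probes, and its median was 0.21 over the members and -0.01 over all kept probes. The members had been chosen with these differences known, so nothing is read from these shares. The interval of Saa1 is the widest, its log2 difference was 0.16 without heterozygous replicate 4 and 1.20 without wildtype replicate 2, and these livers do not show whether its level differs.

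Serpina3m passed the threshold in 3 of 22 other settings: without wildtype replicate 1 (log2 difference 0.83, limma adjusted p = 0.0242), without both arrays that stood apart (0.83, 0.0425) and with array weights (0.83, 0.0310). In these settings 4.44%, 2.13% and 4.00% of all kept probes passed as well. It did not with the title number as a block, where its log2 difference was 0.31 (adjusted p = 0.909). Among livers with title numbers 1 and 2 Serpina3m ranged from 5151 to 7707 units in heterozygous liver and was 6665 and 4724 units in wildtype liver, and all livers with title number 7 were wildtype, at 3155 to 3651 units. Title number and genotype cannot be told apart in those 3 livers, so the wildtype side of the blocked fit is replicates 1 and 2 alone. The sign of 3 members turned with the title number as a block, with log2 differences of -0.61 for Saa1, 0.07 for Serpina3n and 0.02 for Crp.

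**Figure D5:**
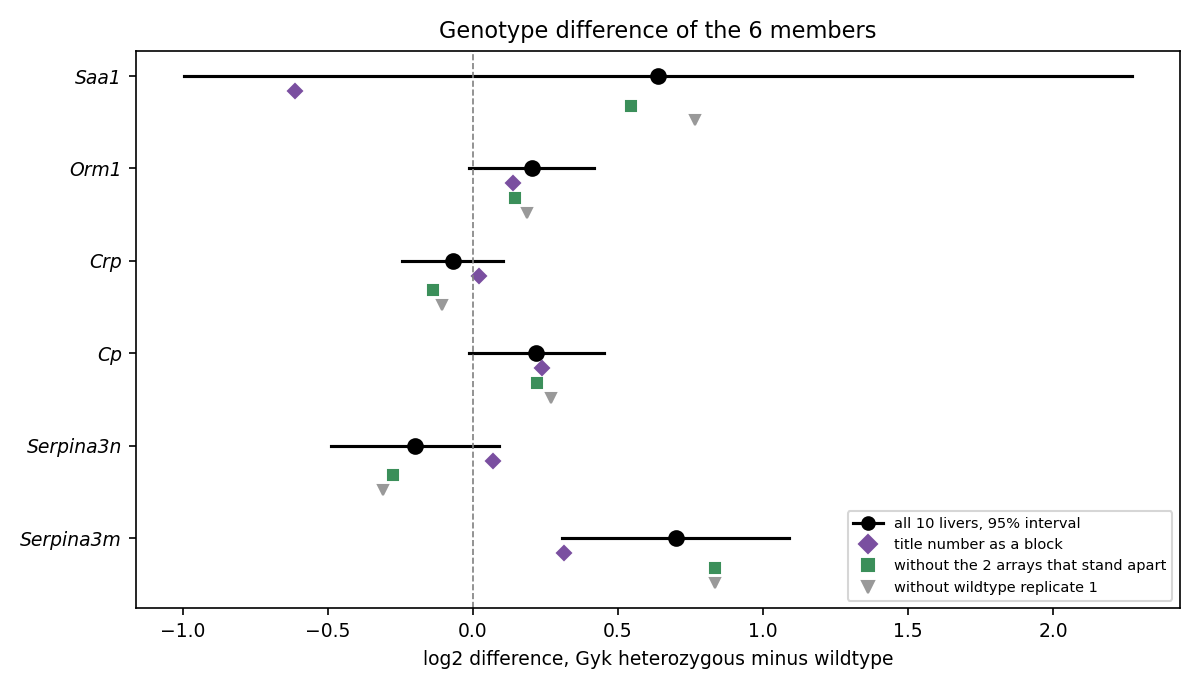
Log2 difference, Gyk heterozygous minus wildtype, of the 6 members; black points and bars are the limma estimate and 95% interval over all 10 livers, and coloured points are estimates under 3 other settings. The interval of Serpina3m runs from 0.31 to 1.09 and the other 5 include 0. With the title number as a block, where the wildtype side is replicates 1 and 2 alone, Serpina3m is at 0.31 and Saa1 at -0.61.

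Other acute phase proteins were sparsely represented by named probes. Of 34 further genes known to be raised in the acute phase, 4 had a kept probe, with a positive log2 difference for 2 and a negative one for 2. With limma 0 of them were called at an adjusted p under 0.05. An unadjusted limma p under 0.05 was reached by 1, and by 11.9% of all kept probes. Angptl4, a secreted inhibitor of lipoprotein lipase that also responds to fasting and fatty acids, averaged 3264 ± 595 units in heterozygous and 5214 ± 1149 units in wildtype liver (SD, n = 5 each), with a log2 difference of -0.59 (limma adjusted p = 0.331). Angptl4 ran against Orm1, with r = -0.92 (rho = -0.94), -0.89 without the 2 arrays that stood apart and -0.88 without the livers farthest from the Orm1 median. This pair was singled out after its values were seen, from many pairs of members and list genes, so a high value is built into the choice. The complement gene C4b had a log2 difference of 0.18, and Mt1, a metallothionein that binds zinc and copper, -0.09. The median of the 4 was -0.02, beside -0.01 over all kept probes; without the 2 arrays that stood apart it was -0.14, with 1 positive and 3 negative.

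A list of plasma proteins taken as lowered in the acute phase had kept probes for 8 of 16 genes. After quantile normalization 6 were higher and 2 lower in heterozygous liver, but by the means of the deposited intensities 1, Trf, was higher and 7 were lower, where 40.0% of all kept probes were higher, so the list has no direction that holds under both scalings. Of these genes 0 of 8 were under 0.05 with limma, adjusted or unadjusted. Their median log2 difference was 0.05. Those with the smallest p were the protease inhibitors Serpina1a (0.09) and Serpina1e (0.60), the apolipoprotein Apoa2 (0.05) and transferrin, Trf (0.50). Serpina1a, Serpina1e and Serpina1d (0.04) code for alpha-1-antitrypsin, which is not established as lowered in mice. All of them were among the 6 higher after normalization, so the counts of this list are not those of lowered proteins alone. Trf had 33746 units in heterozygous replicate 1 and 39262 units in wildtype replicate 1, the 2 arrays that stood apart, and between 4160 and 13924 units in the other 8 livers. Serpina1e had its highest value, 20240 units, in wildtype replicate 2, and 1217 to 8831 units in the other 9 livers.

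The signalling genes upstream of the response showed no called difference either. Of the interleukin-6 and STAT3 pathway 10 of 18 genes were kept, 5 higher and 5 lower, with 0 called by limma. An unadjusted limma p under 0.05 was reached by 1 gene, and by 11.9% of all kept probes. That gene was Jak2, a kinase of cytokine receptors, at 92.7 ± 37.4 units in heterozygous and 51.5 ± 41.0 units in wildtype liver (SD, n = 5 each, log2 difference 0.40). The Jak2 probe had 38.8, 37.2 and 5 units in wildtype replicates 3, 4 and 5, where detection thresholds lay between 21.9 and 41.1 units. Tyk2, another such kinase, had 0.18, the receptor subunit Il6st -0.10 and the transcription factor Cebpb -0.14. Of the interleukin-1, TNF and NF-kappaB pathway 8 of 22 genes were kept, 5 higher and 3 lower, with 0 called and 0 at an unadjusted p under 0.05, the smallest p being those of the receptor subunit Il1rap (0.23), the kinase Ikbkb (0.12), the receptor Tnfrsf1a (0.10) and the receptor Tlr4 (-0.07). Of the glucocorticoid response 7 of 12 genes were kept, 3 higher and 4 lower, with 0 called and 0 at an unadjusted p under 0.05, among them Sgk1 (-0.24), Tsc22d3 (-0.21), Fkbp4 (-0.21) and Pck1 (-0.28). Tsc22d3 was dim, at 4.8 to 42.5 units in heterozygous and 20.8 to 78.8 units in wildtype liver. The medians of these 3 lists were 0.02, 0.02 and -0.21, beside -0.01 over all kept probes. With the title number as a block that of the glucocorticoid list was 0.03, beside 0.03 over all kept probes. In that fit 9 of the 10 interleukin-6 genes were higher, with 0 called and a list median of 0.05. The share of all kept probes that were higher in it was not computed, so nothing is read from that count. The wildtype side of that blocked fit is replicates 1 and 2 alone. By the means of the deposited intensities 4 of 10, 3 of 8 and 2 of 7 genes of these lists were higher in heterozygous liver.

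Markers of other liver cells were set beside the members. Hepatocyte markers with a named probe were Apoa1, Tdo2 and Serpina1a, all 3 detected, with a summed intensity of 51083 to 66579 units in heterozygous and 61782 to 70757 units in wildtype liver. By the means of the deposited intensities 1 of the 3 was higher in heterozygous liver, and after quantile normalization 2 were. Their direction thus depends on the scaling. Kupffer cells are the macrophages of the liver and a source of the cytokines that drive the response. Of 11 Kupffer cell genes 4 had a named probe and were kept, with a summed intensity of 1223 to 2452 units in heterozygous and 966 to 2667 units in wildtype liver. All 4 had a positive log2 difference, with a median of 0.27 and 0 called by limma. An unadjusted limma p under 0.05 was reached by 1, Csf1r (0.41), and by 11.9% of all kept probes. Without the 2 arrays that stood apart 2 of the 4 were positive and 2 negative. The complement gene C1qb had 888, 668, 532, 1013 and 566 units in heterozygous replicates 1 to 5, and 396, 1010.3, 514, 416 and 509 units in wildtype replicates 1 to 5, so the 3 livers highest for Saa1 were also the 3 highest for C1qb. Across the 10 livers C1qb correlated with Saa1 at r = 0.81 (rho = 0.68), Csf1r at 0.72 (rho = 0.67), C1qa at 0.71 (rho = 0.47) and Cd68 at 0.53 (rho = 0.64). Without heterozygous replicate 4 and wildtype replicate 2 these values were 0.50, 0.75, 0.16 and 0.10, so those of C1qb, C1qa and Cd68 rest largely on these livers. Cd68 was dim, at 26.8 to 65.8 units in heterozygous and -20.7 to 94.2 units in wildtype liver. The part of Kupffer cells in the Saa1 values was not tested.

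Neutrophil and monocyte markers were dim. Of 12 genes 6 had a named probe and 2 were kept, S100a9 and Csf3r, and 3 of 9 probes were under the threshold on every array. Their summed intensity was 92.1 to 413.5 units in heterozygous and 75.1 to 236.5 units in wildtype liver. The defining lymphocyte probe Cd3e ranged from 29.7 to 67.2 units in heterozygous and from 1.2 to 65.4 units in wildtype liver. Its r with Saa1 was 0.57 over 10 livers and 0.84 without the 2 arrays that stood apart. Without heterozygous replicate 4 and wildtype replicate 2 it was 0.18. Of 7 endothelial genes 2 were kept, Pecam1 and Eng. In the same order r with Saa1 was 0.70, 0.72 and 0.20 for Eng and 0.10, -0.25 and 0.71 for Pecam1. A positive r with Saa1 was thus not particular to the Kupffer cell markers. Of 8 stellate cell genes 7 had a named probe and 3 were kept, while the collagen and smooth muscle actin genes of that list were not. Of the kept stellate cell genes Dcn, a matrix proteoglycan, averaged 8402 ± 549 units in heterozygous and 11075 ± 1865 units in wildtype liver (SD, n = 5 each, log2 difference -0.30). It correlated with Serpina3n at r = 0.89 over the 10 livers. The other 2 were Reln, a secreted glycoprotein, with a log2 difference of -0.24 and r = 0.79 with Serpina3n, and Lrat, which stores retinol as esters, with 0.15 and r = 0.32. The red blood cell genes Hba-a1 and Hbb-b1 had a summed intensity of 7172 to 12740 units in heterozygous and 7893 to 31945 units in wildtype liver. Both named probes of exocrine pancreas and gut genes were under the threshold on every array, and adipocyte and muscle genes had 0 named probes. The part of these cells in the member values was not tested.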

How the data were processed

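The 10 samples were liver RNA of separate mice, 5 Gyk heterozygous and 5 wildtype, grouped by the source name in the labels and numbered in the order of the samples. The deposited intensity values were made with BeadStudio 1.5.1.3, per the submitters' processing notes. Between 31.1% and 33.1% of them per array are below 0, so a background had been subtracted, and whether the arrays were scaled to each other stayed unknown. Array medians ranged from 14 to 24 units. A further deposited table holds 80 columns named by chip and position, which no label ties to a sample, and these were not used. The names give 2 chips, with 8 arrays on 1 and 2 arrays on the other. Whether those 2 arrays are the 2 that stood apart is not stated and was not tested.

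A constant of 95.2 was added, which put the lowest value at 16, before log2 and quantile normalization. A probe was detected above 1.64 times the root mean square of its array's values below 0, and probes detected on at least 5 of 10 arrays were kept (10238). Groups were compared by linear model and moderated test in limma 3.58.1 (R 4.3.3), two-sided, with Benjamini-Hochberg adjustment over all kept probes; the prior added 3.03 degrees of freedom. The script was tested on simulated data. The number of arrays limits the precision.

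Probe names came from the number inside the identifier, matched to gene identifiers of a RefSeq gene table (GRCm38.p6). Of 9523 such numbers 93.3% matched, and 1.42% did after adding 100000, giving 8884 named and 15164 unnamed probes. The members and gene lists were chosen with earlier results of these data known. Genes named are the members, for each list the 4 with the smallest p, and for each member the 3 with the highest r. Serpina3a, Serpina1d, Csf1r, C1qa, C1qb, Cd68, Dcn, Reln, Lrat, Ikbkg, S100a9, Csf3r, Cd3e, Pecam1 and Eng were named after their values were seen. Lists use the brightest kept probe of a gene. Promoters are RefSeq windows, aligned with Biopython 1.88. Alternatives were other background, scaling and filter settings, the title number as a block, array weights, and leaving out samples.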

Additional observations from a re-analysis of the deposited data

Results flagged for a closer look

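In the 12 groups of 5 values (6 members, 2 genotypes), examined on the intensity and the log2 scale, 24 values were put to Dixon's test at 0.71. Chance flags about 1 in 20 such tests and the members were chosen with their spread known, so nothing is read from the count. By this test 2 values stood far from the rest of their group. Both came from wildtype replicate 2. Its Saa1 intensity of 2580 units was separated from the next wildtype liver by 0.768 of the range of that group, and its Orm1 log2 value of 14.0 by 0.807 of the range. On the log2 scale the Saa1 gap of this liver was 0.504 of the range, and on the intensity scale the Orm1 gap was 0.655, both under the critical value. Of the heterozygous livers none stood out in this way for any member.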

How the results depend on the processing

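Over 22 other settings of background, scaling, filter, weights, blocks and samples, the number of members called stayed at 0 in 19 and was 1 (Serpina3m) in 3. Serpina3m, Orm1 and Cp kept the direction of their genotype difference in all 22, with log2 differences of 0.31 to 0.83, 0.08 to 0.26 and 0.16 to 0.27. The difference of Saa1 was 0.16 to 1.20 with single samples left out. The sign turned for Saa1, Crp and Serpina3n in the fit blocked by title number (-0.61, 0.0194 and 0.0684). It also turned in the same fit within title numbers 1 and 2 (-0.61, 0.0208 and 0.0631). In both fits the wildtype side of the genotype difference is the same 2 livers, replicates 1 and 2, so they are nearly the same comparison. All kept probes called numbered 0 in 19 settings, 410 with array weights, 218 without the 2 arrays that stood apart, and 0 to 445 when single samples were left out, the 445 being without wildtype replicate 1. For members that count was 1 with array weights, 1 without the 2 arrays that stood apart and 0 to 1 with single samples left out. The rank of Saa1 by SD was 5 without the 2 arrays that stood apart and 21 to 71 with single samples left out; without wildtype replicate 1 it was 21, without heterozygous replicate 1 it was 25, without wildtype replicate 2 it was 65 and without heterozygous replicate 4 it was 71. The SD of Saa1 was 1.16 to 1.45 and that of Crp 0.09 to 0.14. Between 7 and 9 of 15 pairs of members correlated above 0. In the settings added after the data were seen, the wider acute phase and signalling lists had 0 called genes without the 2 arrays, without wildtype replicate 1, with array weights and in the fit blocked by title number, and Dcn was called without wildtype replicate 1. No paired analysis was possible because the replicate numbers were given in sample order. The cause of these shifts was not tested.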

Other observations

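Ikbkg, the regulatory subunit of the kinase complex that activates NF-kappaB, was singled out after its values were seen. It ran against Saa1, with r = -0.88 (rho = -0.84) over 10 livers, -0.90 without the 2 arrays that stood apart and -0.77 without heterozygous replicate 4 and wildtype replicate 2. Its probe was dim, at 53.7 to 89.2 units in heterozygous and 55.4 to 89.1 units in wildtype liver, and the list it belongs to holds 8 kept genes, whose r with Saa1 otherwise ranged from -0.61 to 0.58. The Serpina3m probe correlated with Mt1 at r = -0.79 and with Jak2 at r = 0.78, and the Serpina3n probe with Il1rap at r = -0.89. These pairs too were singled out after their values were seen, from many pairs of members and list genes. Their r without the 2 arrays that stood apart is not given, and Jak2 was dim in wildtype liver. These are values across 10 livers that share the title number with genotype, and no p was computed for them.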
